A study of Homo sapiens with 24 samples.

Results

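The nuclear pore complex genes were taken by symbol from the gene groups of the deposited tables: every name made of NUP and a number, together with the 10 names NUPL1, NUPL2, POM121, NDC1, TPR, RANBP2, SEH1L, SEC13, AAAS and RAE1. The rule used no measured value and found 29 of 13236 gene groups. One of them, NUP62CL, matched by its name alone and was kept apart from the subcomplexes. NUP62 was not analysed here. The cells were HEK293T, an established line derived from human embryonic kidney. Treated cells were given 10 µM OSMI-2, which inhibits OGT, the enzyme that places O-GlcNAc sugars on proteins inside the cell, or 5 µM TMG, which inhibits the enzyme that takes them off (MGEA5 in the tables). Control cells were given DMSO alone, and polyadenylated RNA was sequenced after 2 h or 6 h. The OSMI-2 experiment had 3 libraries each of DMSO 2 h, OSMI-2 2 h and DMSO 6 h and 2 libraries of OSMI-2 6 h. The TMG experiment had 3 libraries each of DMSO 2 h, TMG 2 h, DMSO 6 h and TMG 6 h. Libraries are called by the letters a, b and c of the count columns. Nothing in the labels says that the libraries of a group came from separate cultures, so p-values measure the spread between these libraries, which may be technical.

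The nuclear pore complex is the channel through which proteins and RNA cross the nuclear envelope. An outer ring and an inner ring of scaffold proteins are anchored by membrane proteins and surround a central channel. The channel is lined with nucleoporins whose phenylalanine-glycine repeats, the FG repeats, bind transport receptors. Many FG nucleoporins are heavily modified with O-GlcNAc. A detained intron is an intron that stays unspliced in polyadenylated RNA held in the nucleus. For each member a gene value, the sum of all bins outside detained introns, and the counts in its detained introns were followed separately.

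The libraries held between 39.5 M and 100.2 M counts in total (M, mega), and the member genes held 0.294% to 0.501% of them in the OSMI-2 experiment and 0.583% to 0.643% in the TMG experiment. VIM, which HEK293T cells express, had 305 to 817 CPM, counts relative to the library size in M. Of the other genes listed for this line, the neurofilament gene NEFL had 14.6 to 31.2 CPM and INA 7.80 to 41.7 CPM. NEFM (0.30 to 2.60 CPM) and PAX2 (1.20 to 4.16 CPM) were low, and NEFH had no row in the tables. ALB, PTPRC, HBB and MYH7, which mark liver, blood, red cells and muscle, had no row either. COL1A1 (fibroblasts) had 6.09 to 23.6 CPM. One library stood apart. Across 10430 genes, log2 counts increased with the GC content of the gene by 0.83 to 1.15 per 10 GC points in the OSMI-2 experiment, except in DMSO 6 h library a, where the slope was 0.42. In the TMG experiment the slope was negative, from -0.54 to -0.24. The 28 members with a GC value had a median of 43.5% GC against 48.3% over all genes. The OSMI-2 libraries were deeper than their DMSO libraries, with 63.1 M to 100.2 M against 43.2 M to 51.7 M at 2 h and 56.2 M to 86.3 M against 41.7 M to 54.1 M at 6 h, and its part in the results was not tested. Counts of called members that rest on DMSO 6 h library a are given with and without it, and calls on genes of the transport machinery with it alone. The part of GC content in them was not tested further than by a fit with the slope as a covariate. In the TMG experiment that fit can hardly separate the slope from drug or time. The slopes there were -0.24 to -0.28 in DMSO 2 h, -0.27 to -0.35 in TMG 2 h and -0.33 to -0.50 in DMSO 6 h.

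In the DMSO 2 h libraries of both experiments SEC13, an outer ring protein that also serves in the COPII coat, had the highest level per length among the members. Levels here are CPM per kilobase of all bins outside detained introns, scaled over all 23 libraries. SEC13 had 178 ± 3.3 (SD, n = 3) in the OSMI-2 experiment, followed by AAAS, a cytoplasmic-side protein, with 149 ± 31 (SD, n = 3), whose libraries overlapped with those of SEC13. RAE1, a partner of NUP98 in mRNA export, had 97.9 ± 10 and the inner ring scaffold protein NUP188 had 82.8 ± 10 (SD, n = 3 each). The lowest were NUPL2 with 4.86 ± 0.13, RANBP2 with 4.14 ± 0.44 and NUPL1 with 1.15 ± 0.14 (SD, n = 3 each), and the last of these lay apart from its neighbour. In this order 21 of 28 pairs of neighbours overlapped in their libraries and 7 did not.

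In the TMG experiment the DMSO 2 h order began with SEC13 at 104 ± 4.7, the inner ring protein NUP205 at 87.1 ± 1.7, the outer ring proteins NUP107 at 78.0 ± 2.9 and NUP133 at 67.5 ± 1.7, and AAAS at 63.7 ± 2 (CPM per kilobase, SD, n = 3 each). The lowest were NUPL1 at 10.1 ± 0.58, NUPL2 at 9.47 ± 0.56 and POM121 at 7.90 ± 0.53 (SD, n = 3 each). Here 16 of 28 neighbours overlapped and 12 lay apart. Levels of the 2 experiments stand side by side without a test. POM121 is uncertain throughout, since its near-identical copy POM121C held 4463 to 14662 counts per library beside 3997 to 13393 for POM121. RANBP2 has copies too, but RGPD8, the copy with the most counts, reached at most 164. The lengths include wide bins that the authors left unclassified. For POM121 the bin POM121_E009 makes up 12002 of 17341 bases, and for NUP85 the bin NUP85_E009 makes up 3246 of 8435. The part of such bins in the order of the levels was not tested.

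**Figure D1:**
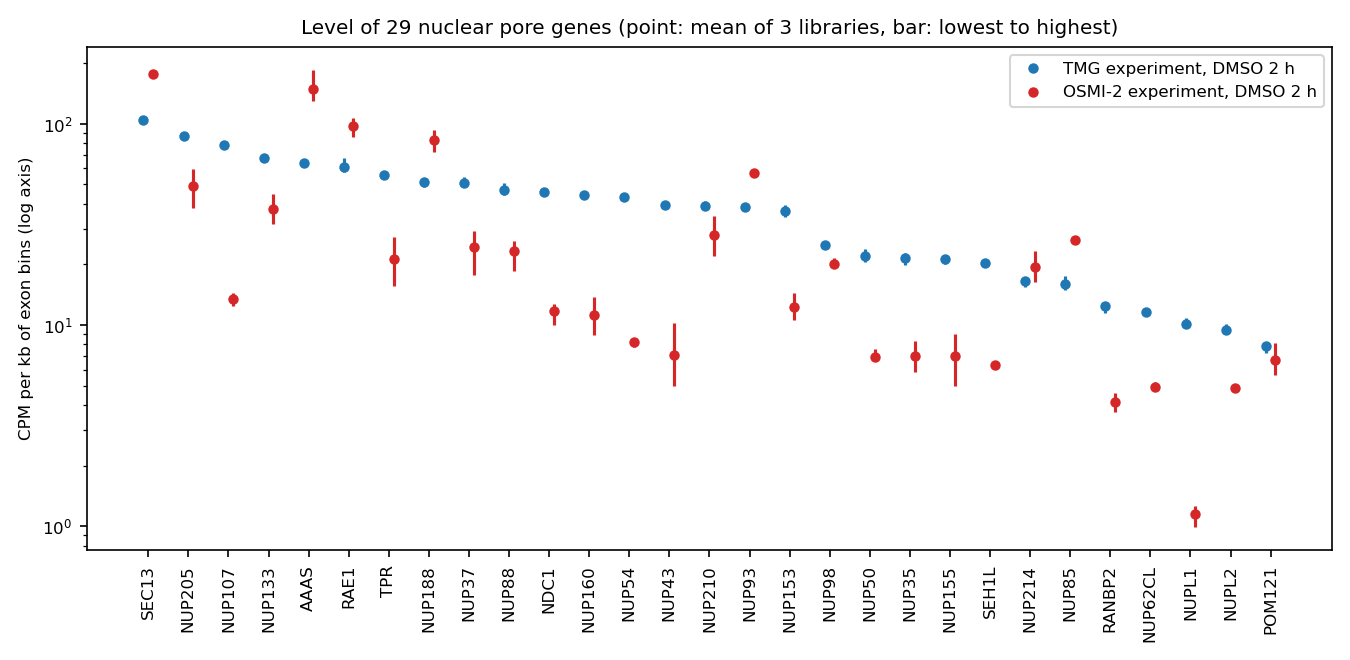
Level of the 29 nuclear pore genes in the DMSO 2 h libraries of each experiment, in CPM per kilobase of all bins outside detained introns (labelled exon bins) on a log axis, with a point for the mean of 3 libraries and a bar from the lowest to the highest. SEC13 is the highest in both (178 and 104), and NUPL1 is the lowest in the OSMI-2 experiment (1.15).

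Detained introns were frequent among the members. The authors' bin classes marked 52 bins in 21 of the 29 genes (72.4%), against 3140 of 11253 genes with a mean of at least 50 counts (27.9%). Those genes were not matched to the members, which had median counts of 678 to 29323 and 8 to 56 bins. The part of counts and bin number in this difference was not tested. The 52 bins lie in 47 distinct introns, and 5 of them also carry another of the authors' classes. The 8 members without one were NUP35, NUP37, NUP43, NUPL1, NUPL2, RAE1, RANBP2 and SEH1L. A single detained intron was found in 9 members, and 12 had more. NUP188 and NUP214, with 7 bins each, had the most. The bins were 5 to 13402 bases wide with a median of 1675, near the median of 1798 over all detained intron bins.

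The detained introns lay toward the 3′ ends of the genes: 43 of 47 (91.5%) had their middle nearer to the 3′ end than to the 5′ end of the gene and 32 (68.1%) within 25% of the gene's length from the 3′ end, against 84.5% and 60.0% of all 4607 detained introns. Among them were 4 introns that recur in several comparisons. The intron of NUP54, a central channel FG protein, is bin NUP54_E004 (hg19, chromosome 4, 77039348 to 77045801, minus strand, 6454 bases). That of NUP50, a basket protein, is NUP50_E007 (chromosome 22, 45571962 to 45574118, plus strand, 2157 bases). The main one of NUP107 is NUP107_E012 (chromosome 12, 69107589 to 69109406, plus strand, 1818 bases). NDC1, a membrane protein of the pore, has a single one, NDC1_E007 (chromosome 1, 54258953 to 54262361, minus strand, 3409 bases).

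The first comparison asked which members respond to OSMI-2 within 2 h. No member gene and no member intron was called. With edgeR's quasi-likelihood test and Benjamini-Hochberg adjustment 0 of 29 member genes passed the threshold of 0.05, with 0 at an unadjusted p under 0.05 and 0 called by DESeq2, and 0% of all 12320 genes passed. The members' median log2 fold change was -0.08, beside -0.01 over all genes, and single values ran from -0.40 (NUP155, inner ring) to 0.20 (SEH1L, outer ring). Of the 26 detained intron bins with enough counts to test, 0 passed in edgeR, 0 had an unadjusted p under 0.05 and 0 passed in DESeq2, against a background of 0.131%. Relative to the gene, with limma on the log2 ratio of intron to gene counts, 0 of 28 passed and 0 had an unadjusted p under 0.05, with a background of 0.0643%. OGT (log2 fold change 0.57) and MGEA5 (-0.63) did not pass either (edgeR, Benjamini-Hochberg adjusted p = 1.0 for both).

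After 6 h of OSMI-2 the detained introns of the members were lower almost throughout, and the calls on the member genes depended on 1 DMSO library. At the gene level 0 of 29 members passed (edgeR quasi-likelihood test; 1 at an unadjusted p under 0.05; 0 by DESeq2), where 4.87% of 12486 genes did. The median log2 fold change was 0.07 for the members and 0.15 for all genes. The member nearest to the threshold was NUP43, an outer ring protein, with 18.5, 9.30 and 7.65 CPM in the DMSO libraries a, b and c and 5.11 and 5.44 CPM with OSMI-2. Both OSMI-2 libraries lay below all DMSO libraries, by a log2 fold change of -1.16 (SE 0.38; adjusted p = 0.051 by Benjamini-Hochberg in edgeR). OGT and MGEA5 themselves fell, by 1.85 and 1.93 on the log2 scale (edgeR, Benjamini-Hochberg adjusted p = 0.00038 and 0.00015).

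Without DMSO 6 h library a, 14 of 29 members passed, and so did 42.4% of 12402 genes, so the members' share (14 of 29) stood close to that of all genes. Of these, 12 were higher and 2 lower with OSMI-2. All 3 basket genes were among the higher ones. NUP50 had 10.8 and 12.5 CPM in DMSO libraries b and c, 19.6 and 23.5 CPM with OSMI-2, and 19.4 CPM in DMSO library a. It rose by 0.93 without library a (SE 0.14; adjusted p = 0.0038 by Benjamini-Hochberg in edgeR). NUP153, an FG protein of the basket, had 60.0 and 67.2 CPM in DMSO libraries b and c, 117 and 106 with OSMI-2, and 128 in library a. Library a thus lay above both OSMI-2 libraries for NUP153, and between or near them for NUP50.

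For TPR, the filament protein of the basket, the values were 162 and 175 CPM in DMSO libraries b and c, 230 and 290 with OSMI-2, and 370 in library a. The cytoplasmic filament protein RANBP2 showed the same order, with 25.5 and 27.6 CPM, 43.6 and 49.9 CPM, and 64.7 CPM in library a. Without library a RANBP2 rose by 0.86 (SE 0.12), NUP153 by 0.86 (SE 0.13), NUP133 by 0.80 (SE 0.20) and TPR by 0.67 (SE 0.13), each in edgeR with Benjamini-Hochberg adjusted p from 0.0032 to 0.017. The others that rose were NUP54 (0.72), SEH1L (0.64), NUP35 (0.62), NUP88 (0.50), NUP98 (0.41), POM121 (0.38) and NUP214 (0.33).

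The 2 members that fell without library a were outer ring genes. NUP85 had 178, 205 and 246 CPM in DMSO and 156 and 122 CPM with OSMI-2, and fell by 0.65 (SE 0.16; adjusted p = 0.018 by Benjamini-Hochberg in edgeR). NUP43 fell by 0.64 (SE 0.16; adjusted p = 0.018 in the same edgeR fit). With all libraries kept and the GC slope as a covariate, an alternative chosen after seeing the data, 10 members rose and 2 fell, and 43.2% of all genes passed, so the 12 of 29 again stood close to the share of all genes. Leaving out any other single library of this comparison gave 0, a count not set against all genes.

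**Figure D2:**
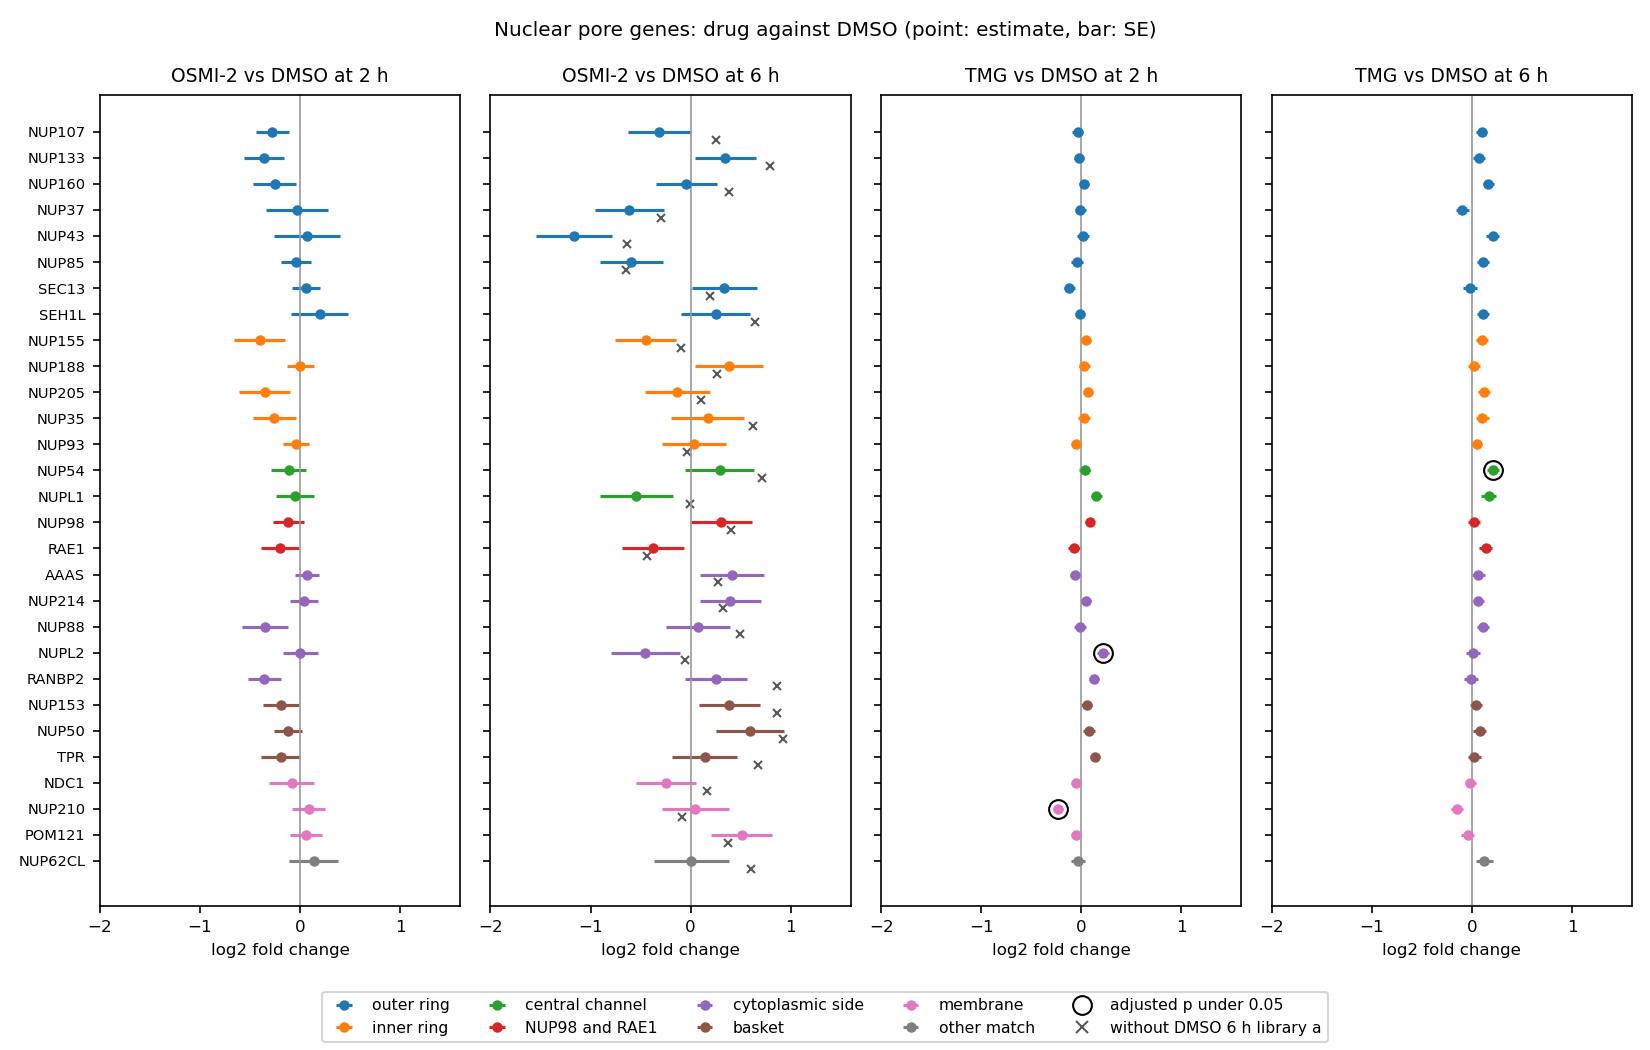
Log2 fold change of each nuclear pore gene in the 4 drug comparisons (point: edgeR estimate, bar: SE, colour: subcomplex), with a ring where the adjusted p was under 0.05 and a cross, at 6 h of OSMI-2, for the estimate without DMSO 6 h library a. No gene is ringed with OSMI-2, where crosses lie up to 0.93 (NUP50), and 2 genes are ringed at 2 h and 1 at 6 h of TMG.

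The detained introns gave another picture. In bulk RNA of a culture, fewer cells with unspliced RNA and less of it per cell cannot be told apart. Summed over the members with detained introns, they held 0.481%, 0.532% and 0.536% of the gene plus intron counts of these members in DMSO 2 h and 0.458%, 0.464% and 0.564% in OSMI-2 2 h. They held 1.91%, 1.91% and 1.35% in DMSO 6 h and 0.504% and 0.580% in OSMI-2 6 h. The OSMI-2 6 h libraries thus lay at the level of the 2 h libraries, and the DMSO 6 h libraries lay above all other groups. The corresponding share over all genes with detained introns was 0.848% to 0.923% (DMSO 2 h), 0.824% to 0.949% (OSMI-2 2 h), 2.24% to 3.28% (DMSO 6 h) and 0.866% to 0.992% (OSMI-2 6 h). The lower value with OSMI-2 at 6 h is therefore a difference from a control group that was itself higher than the 2 h control, and both comparisons share the DMSO 6 h libraries.

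**Figure D3:**
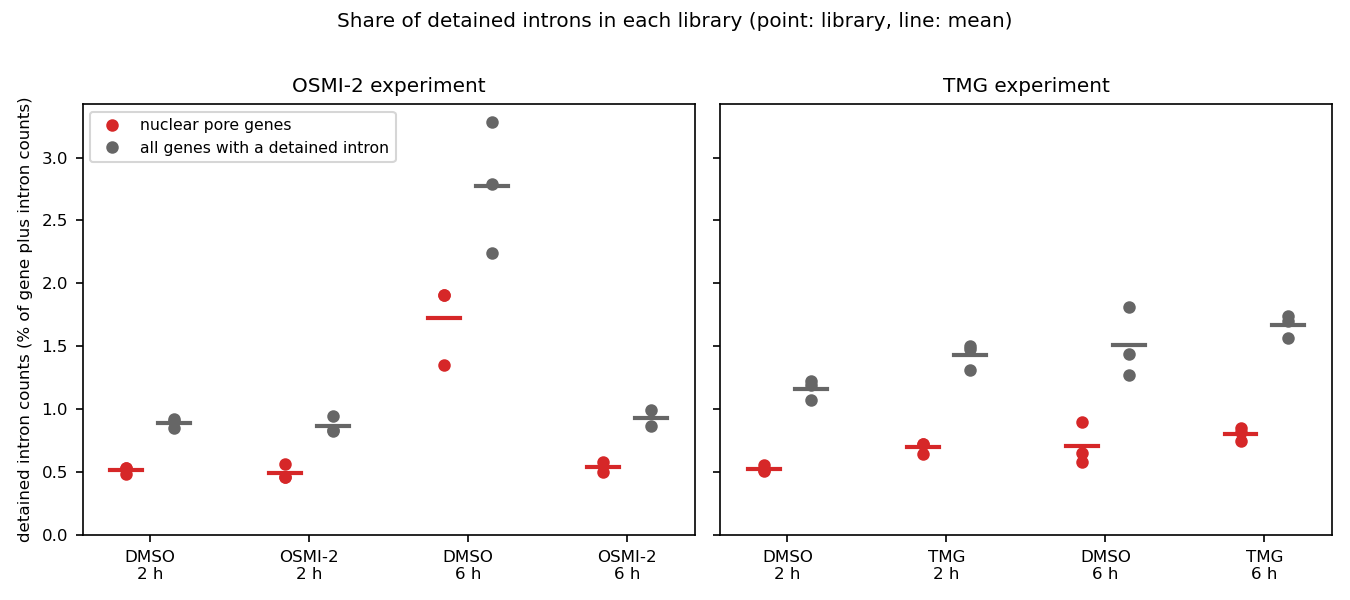
Counts in detained introns as a percentage of gene plus intron counts, with a point per library and a line at the group mean, for the nuclear pore genes and for all genes with a detained intron. DMSO 6 h of the OSMI-2 experiment lies at 1.35% to 1.91% for the nuclear pore genes, above every other group, and OSMI-2 6 h at 0.504% to 0.580%.

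Of the 52 member bins, 51 could be tested at 6 h of OSMI-2, and 48 were lower (quasi-likelihood test of edgeR, p adjusted by Benjamini-Hochberg under 0.05), beside 86.4% of all 4684 bins tested. At 2 h 26 member bins and 3043 bins in all had enough counts to test. Bins low with OSMI-2, such as NUP188_E032, could enter the test at 6 h through the high DMSO 6 h libraries alone. The part of this in the counts of lower bins was not tested. The median log2 fold change was -1.78 for the members and -1.55 for all. By role, 16 of 16 bins of the inner ring were lower, 9 of 10 of the outer ring, 8 of 9 of the cytoplasmic side, 6 of 7 of the membrane proteins, 4 of 4 of the basket, 3 of 3 of NUP98 and the single bins of NUP54 and NUP62CL. Relative to the gene 48 of 50 were lower (limma, median -1.96), beside 89.2% of all (median -1.63). With DMSO 6 h library a left out, 49 of 49 bins were lower in edgeR, with a median of -1.57, and 46 of 49 relative to the gene in limma, where 84.4% and 87.1% of all bins were called in either direction. In the authors' deposited table of bin usage 44 of 52 member bins were lower (84.6%), beside 80.3% of all detained intron bins that were lower. With size factors computed over detained introns alone, which sets each bin against the other detained introns, 6 member bins were lower and 2 higher, and of all 4684 bins 16.2% were called, 273 lower and 487 higher.

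In the inner ring the largest difference was in NUP188_E032 (chromosome 9, 131757203 to 131757597, 395 bases). It had 35, 29 and 33 counts in DMSO and 2 and 5 with OSMI-2. The groups did not overlap, and the intron fell by 3.35 on the log2 scale (SE 0.57; adjusted p = 5.3e-08 by Benjamini-Hochberg in edgeR). NUP188_E049 fell by 2.59 and NUP188_E026 by 2.34. NUP205_E047 fell by 2.23.

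In the outer ring NUP107_E012 had 157, 91 and 67 counts in DMSO, or 3.91%, 4.97% and 3.92% of the gene, and 10 and 30 counts with OSMI-2, or 0.636% and 1.07%. It fell by 2.60 (SE 0.38; adjusted p = 2.8e-10 by Benjamini-Hochberg in edgeR), and the other NUP107 intron, NUP107_E028, fell by 2.53. The outer ring also held the smallest differences. SEC13_E009, a wide intron of the most highly expressed member, had 208, 286 and 224 counts in DMSO and 134 and 246 with OSMI-2, so the counts overlapped, with a log2 fold change of -0.53 (SE 0.28; edgeR, adjusted p = 0.068 after Benjamini-Hochberg). Relative to its gene SEC13_E009 passed, at -0.88 (SE 0.27; adjusted p = 0.0013 by Benjamini-Hochberg in limma). The opposite held for NUP85_E015 and NUP85_E018, which fell by 1.21 and 1.18 as counts and had -0.59 and -0.56 relative to the gene (limma, adjusted p = 0.096 and 0.092 after Benjamini-Hochberg), beside the lower gene counts of NUP85.

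The intron of NUP54 held 10.1%, 12.8% and 8.89% of the gene's counts in DMSO 6 h and 2.16% and 2.06% in OSMI-2 6 h. That of NUP50 held 9.39%, 13.4% and 9.91% in DMSO and 3.51% and 1.91% with OSMI-2. The groups were far apart in both genes, and their means in DMSO 6 h were the highest among the members, although a single DMSO 6 h library reached 17.4% in NUP62CL, on 42 counts. As counts NUP54_E004 fell by 2.15 (SE 0.38) and NUP50_E007 by 1.55 (SE 0.36) in edgeR, with Benjamini-Hochberg adjusted p = 1.4e-07 and 3.6e-05. Other members with high shares in DMSO 6 h were NUP62CL (mean 9.53%), NUP107 (7.01%), NUP210 (3.20%), NUP214 (2.72%) and NUP85 (2.66%).

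At the membrane NDC1_E007 had 85, 59 and 54 counts in DMSO (1.78%, 2.47% and 1.96% of the gene) and 13 and 17 with OSMI-2 (0.515% and 0.471%), and it fell by 2.29 (SE 0.42; adjusted p = 2.9e-07 by Benjamini-Hochberg in edgeR). NUP98_E004, in the gene of the FG protein that binds RAE1, had 49, 30 and 33 counts against 5 and 6 and fell by 2.90. On the cytoplasmic side NUP214_E031 had 60, 47 and 36 counts against 6 and 15 and fell by 2.37, and AAAS_E011 fell by 2.21. In all 4 introns each OSMI-2 library lay below each DMSO library. The bins that did not pass in edgeR, besides SEC13_E009, were NUP88_E008, with 20, 25 and 29 counts against 17 and 14 (log2 fold change -0.79), and POM121_E022 (-0.89), with Benjamini-Hochberg adjusted p of 0.093 and 0.067. Summed per gene, the intron share was lower in every OSMI-2 library than in every DMSO library for 20 of 21 members, and only NUP88 overlapped. The same held for 93.5% of 2422 genes with a mean of at least 20 detained intron counts. This limit was not set for the members, and NUP155 and NUP62CL, with means of 8.96 and 7.13, lay below it.

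**Figure D4:**
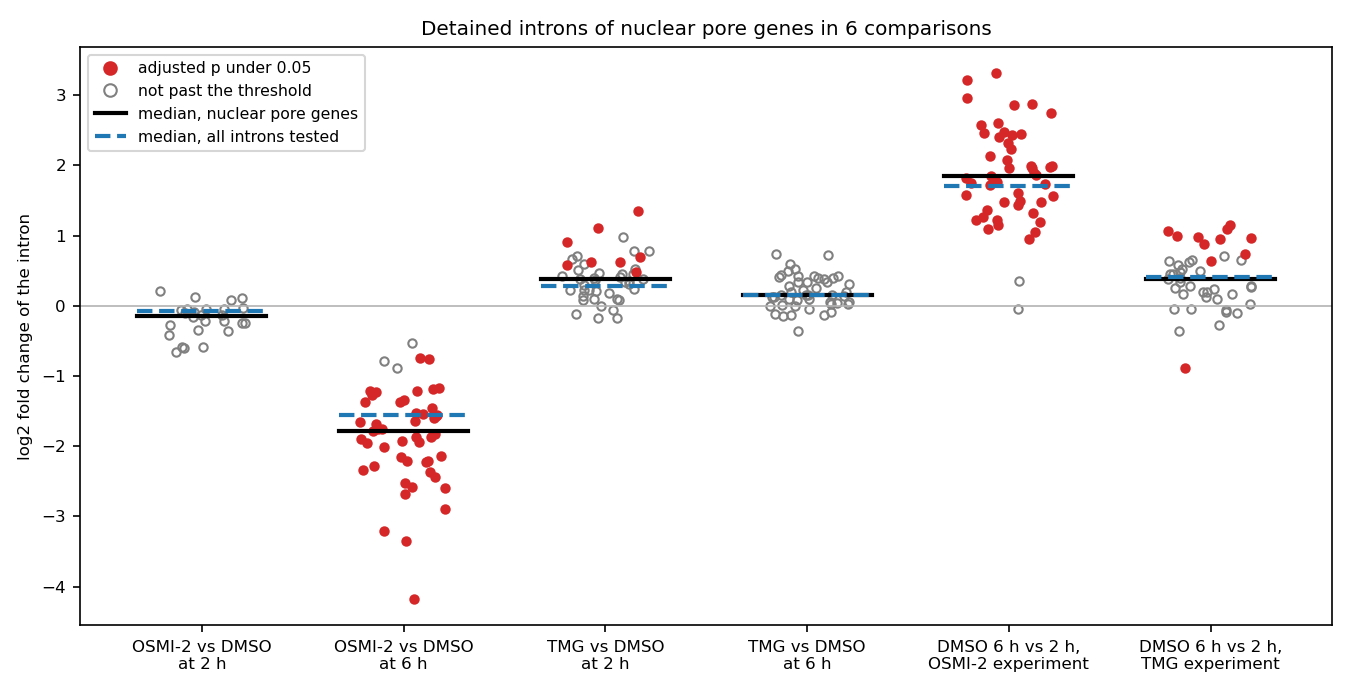
Log2 fold change of each detained intron bin of the nuclear pore genes in 6 comparisons (edgeR; filled: adjusted p under 0.05, open: not past the threshold), with the median of these bins and of all bins tested. At 6 h of OSMI-2, 48 of 51 bins are filled and below 0, and at 2 h of TMG 8 of 45 are filled and above 0.

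Outside detained introns few bins of these genes were called. In the authors' deposited table for 6 h of OSMI-2, 22 of 690 such member bins with an adjusted p passed, 11 higher and 11 lower (3.19%, beside 4.08% of all bins outside detained introns). In the other 3 drug comparisons the authors' deposited table called 0 of them. NUPL2, a cytoplasmic-side FG protein with no detained intron, had its first 3 bins higher, by 0.45 to 0.55, and its later bins NUPL2_E004, NUPL2_E005 and NUPL2_E007 lower, by -1.21, -0.50 and -1.45, in the authors' deposited table. NUP93, an inner ring linker, had 2 bins lower there, NUP93_E025 by -2.41 and NUP93_E027 by -2.12 (authors' adjusted p 8.6e-07 and 1.0e-05). NUP85_E009 (hg19, chromosome 17, 73214710 to 73217955, 3246 bases) was lower by -2.18 in the authors' deposited table. These bins were chosen after their values were seen.

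The DMSO libraries of 6 h and 2 h give the background against which both times stand. In the OSMI-2 experiment 47 of 49 member intron bins were higher in DMSO 6 h than in DMSO 2 h (edgeR quasi-likelihood test, Benjamini-Hochberg), beside 88.5% of all bins, with a median log2 fold change of 1.85 for the members and 1.70 for all. With DMSO 6 h library a left out, 45 of 49 were higher, where 89% of all bins were called in either direction. Bins low at 2 h could enter the test through the DMSO 6 h libraries alone, and the part of this was not tested. NDC1_E007 went from 6, 5 and 2 counts to 85, 59 and 54 and rose by 3.31 (SE 0.43), and NUP54_E004 from 6, 8 and 10 counts to 122, 94 and 48 and rose by 2.85 (SE 0.38), each with a Benjamini-Hochberg adjusted p of 1.1e-09 or less in edgeR. NUP214_E031 rose by 3.22, TPR_E041 by 2.58 and NUP107_E012 by 2.45. The 2 that did not pass were SEC13_E009 (0.36) and NUP88_E008 (-0.05), which also missed the threshold with OSMI-2 at 6 h. Those 2 comparisons share the DMSO 6 h libraries, so their values are set side by side and not compared.

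At the gene level 1 of 29 members passed between the DMSO groups of the OSMI-2 experiment, where 18.5% of 12356 genes did. It was NUP88, a partner of NUP214, with 25.2, 26.1 and 18.5 CPM per kilobase at 2 h and 16.1, 7.55 and 9.72 at 6 h. Each 6 h library lay below each 2 h library, and NUP88 fell by 1.03 (SE 0.28; adjusted p = 0.011 by Benjamini-Hochberg in edgeR). The median log2 fold change was -0.14 for the members and -0.25 for all genes. Among the FG genes the log2 fold changes ran from -0.63 (NUP54) to 0.50 (NUPL1), and none passed. The count was 0 without DMSO 2 h library a, DMSO 2 h library b or DMSO 6 h library b, which is not set against all genes. Without DMSO 6 h library a, 10 members passed beside 37% of all genes. NUP88, NUP62CL, NUP35, NUP133, NUP54, SEH1L, NUP50, RANBP2 and NUP153 were then lower, by -1.37 to -0.53, and NUP210 was higher by 0.69.

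In the TMG experiment the DMSO groups of 6 h and 2 h also differed. Of 44 bins, 10 were higher at 6 h (edgeR; 21% of all bins), and 1 was lower, POM121_E020 (-0.89). The median was 0.39 for the members and 0.41 for all. The summed share of the members' detained introns was 0.509%, 0.558% and 0.518% in DMSO 2 h and 0.576%, 0.895% and 0.655% in DMSO 6 h. The lowest 6 h library lay just above the highest 2 h library. The bins that rose most among those with a mean of at least 20 counts were NUP93_E011 (1.10), NUP210_E026 (0.98) and NUP205_E037 (0.96), with edgeR Benjamini-Hochberg adjusted p of 0.0061 to 0.0087. The count of called bins was 3 without any 1 of the 2 h libraries, 4 without DMSO 6 h library b and 5 without DMSO 6 h library c. These counts are not set against all bins. With the GC slope as a covariate the count was 0, beside 0.269% of all bins. The slope separated the 2 times, so this fit cannot tell GC content from time.

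Of the member genes 12 of 29 passed there, beside 45.9% of 12294 genes, 5 higher and 7 lower at 6 h. RANBP2 had 11.4, 12.7 and 13.0 CPM per kilobase at 2 h and 13.9, 17.5 and 17.8 at 6 h, and rose by 0.29 (SE 0.08; adjusted p = 0.0031 by Benjamini-Hochberg in edgeR). TPR had 53.9, 53.8 and 58.5 against 63.1, 73.8 and 79.7 and rose by 0.27. NUP188 (0.24), NUPL2 (0.23) and NUP43 (0.19) rose too. NUP62CL, which is no established pore subunit, went from 11.5, 11.8 and 11.7 to 8.06, 7.44 and 8.51 and fell by 0.65 (SE 0.09; adjusted p = 1.5e-06 by Benjamini-Hochberg in edgeR). NUP210, a membrane glycoprotein of the pore, fell by 0.37, SEC13 by 0.34, AAAS by 0.33, NUP54 by 0.22, NUP153 by 0.19 and NUPL1 by 0.19. The libraries of the 2 times overlapped for NUP54, NUP153 and NUPL1 and for no other of the 12. The FG genes NUP50, POM121, NUP214 and NUP98 had -0.16, -0.16, -0.11 and -0.07 and did not pass. With the GC slope as a covariate, added after seeing the data, 4 members passed among 2210 genes in all, and RANBP2 had -0.010. The slope separated the 2 times, so this fit cannot tell GC content from time.

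TMG at 2 h was accompanied by small changes in 2 member genes and by higher counts in some member introns. At the gene level 2 of 29 passed, beside 7.91% of 12365 genes, and the median log2 fold change was 0.02 (all genes -0.03). NUP210 had 499, 534 and 485 CPM in DMSO and 451, 426 and 417 CPM with TMG. The groups did not overlap, and it fell by 0.23 (SE 0.05; adjusted p = 0.0074 by Benjamini-Hochberg in edgeR). NUPL2 had 37.7, 33.3 and 33.5 CPM in DMSO and 40.3, 40.3 and 40.7 CPM with TMG, again without overlap, and rose by 0.22 (SE 0.06; adjusted p = 0.029 in the same edgeR fit). Of the other FG genes and TPR, NUPL1 (0.15), TPR (0.14) and RANBP2 (0.13) came nearest, with edgeR Benjamini-Hochberg adjusted p of 0.085 to 0.13, and NUP98 (0.08), NUP50 (0.08), NUP153 (0.05), NUP214 (0.05), NUP54 (0.03) and POM121 (-0.05) were smaller. The count was 1, NUP210, without DMSO library b, DMSO library c or TMG library a, and 0 without TMG library b or TMG library c. These counts are not set against all genes. With the GC slope as a covariate the count was 0, beside 0% of all genes, and the slope ran nearly with the drug.

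The members' detained introns held 0.509% to 0.558% of the members' counts in DMSO 2 h and 0.647% to 0.724% in TMG 2 h, without overlap. Over all genes the shares were 1.07% to 1.23% and 1.32% to 1.503%. Of 45 bins tested 8 were higher (edgeR quasi-likelihood test, Benjamini-Hochberg), beside 9.75% of all 4061 bins, and 0 were lower. The median log2 fold change was 0.39 for the members and 0.29 for all. Relative to the gene, 8 of 43 were higher (limma, 10.2% of all), and NUP205_E037 took the place of TPR_E041. DESeq2 called 2, NUP107_E012 and NUP54_E004, beside 4.48% of all bins. Its filter left many bins without an adjusted p, among them NUP205_E047 and NUP214_E037 (DESeq2, unadjusted p = 0.0012 and 0.0022). Such bins count as not called, in the 4.48% as well. The edgeR count was 5, 4, 3 and 1 without DMSO library a, DMSO library c, TMG library a and TMG library b. The limma count was 4, 5, 0 and 0 without the same 4 libraries, and these counts are not set against all bins. With the GC slope as a covariate edgeR called 0, beside 0.172% of all bins, and NUP107_E012 had 0.61 (SE 0.23). The slope ran nearly with the drug here, so this fit cannot tell GC content from TMG.

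The 8 bins came from 6 of the subcomplexes. In the outer ring NUP107_E012 had 108, 130 and 125 counts in DMSO and 185, 191 and 164 with TMG and rose by 0.62 (SE 0.14; adjusted p = 0.0049 by Benjamini-Hochberg in edgeR). NUP160_E009 had 39, 62 and 40 counts against 65, 68 and 71 and rose by 0.59. In both introns every TMG library lay above every DMSO library.

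In the inner ring NUP205_E047 had 17, 22 and 15 counts in DMSO and 35, 46 and 32 with TMG and rose by 1.11 (SE 0.25; adjusted p = 0.0056 by Benjamini-Hochberg in edgeR). NUP93_E011 had 10, 23 and 24 against 36, 38 and 30 and rose by 0.91. On the cytoplasmic side NUP214_E037 had 11, 9 and 9 counts against 27, 24 and 21 and rose by 1.35 (SE 0.31; adjusted p = 0.0057 in the same edgeR fit). The groups did not overlap in any of the 3, and the last, with a mean below 20 counts, was named after its values were seen.

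In the central channel NUP54_E004 had 46, 73 and 50 counts in DMSO and 77, 101 and 73 with TMG. The lowest TMG and the highest DMSO library had the same count, and the intron rose by 0.63 (SE 0.19; adjusted p = 0.029 by Benjamini-Hochberg in edgeR). At the membrane NDC1_E007 had 38, 39 and 35 counts against 56, 67 and 53 and rose by 0.70. In the basket TPR_E041 had 84, 80 and 73 counts against 100, 115 and 107 and rose by 0.49. The authors' deposited table of bin usage called 4 of 43, all higher, beside 3.74% of all detained intron bins: NUP214_E037 (1.32), NUP205_E047 (1.05), NDC1_E007 (0.75) and NUP107_E012 (0.64). Per gene, the intron share was higher in every TMG library than in every DMSO library for 13 of 21 members, against 37.0% of 2422 genes. Those 2422 genes had a mean of at least 20 detained intron counts, a limit not set for the members and not reached by NUP155, one of the 13.

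**Figure D5:**
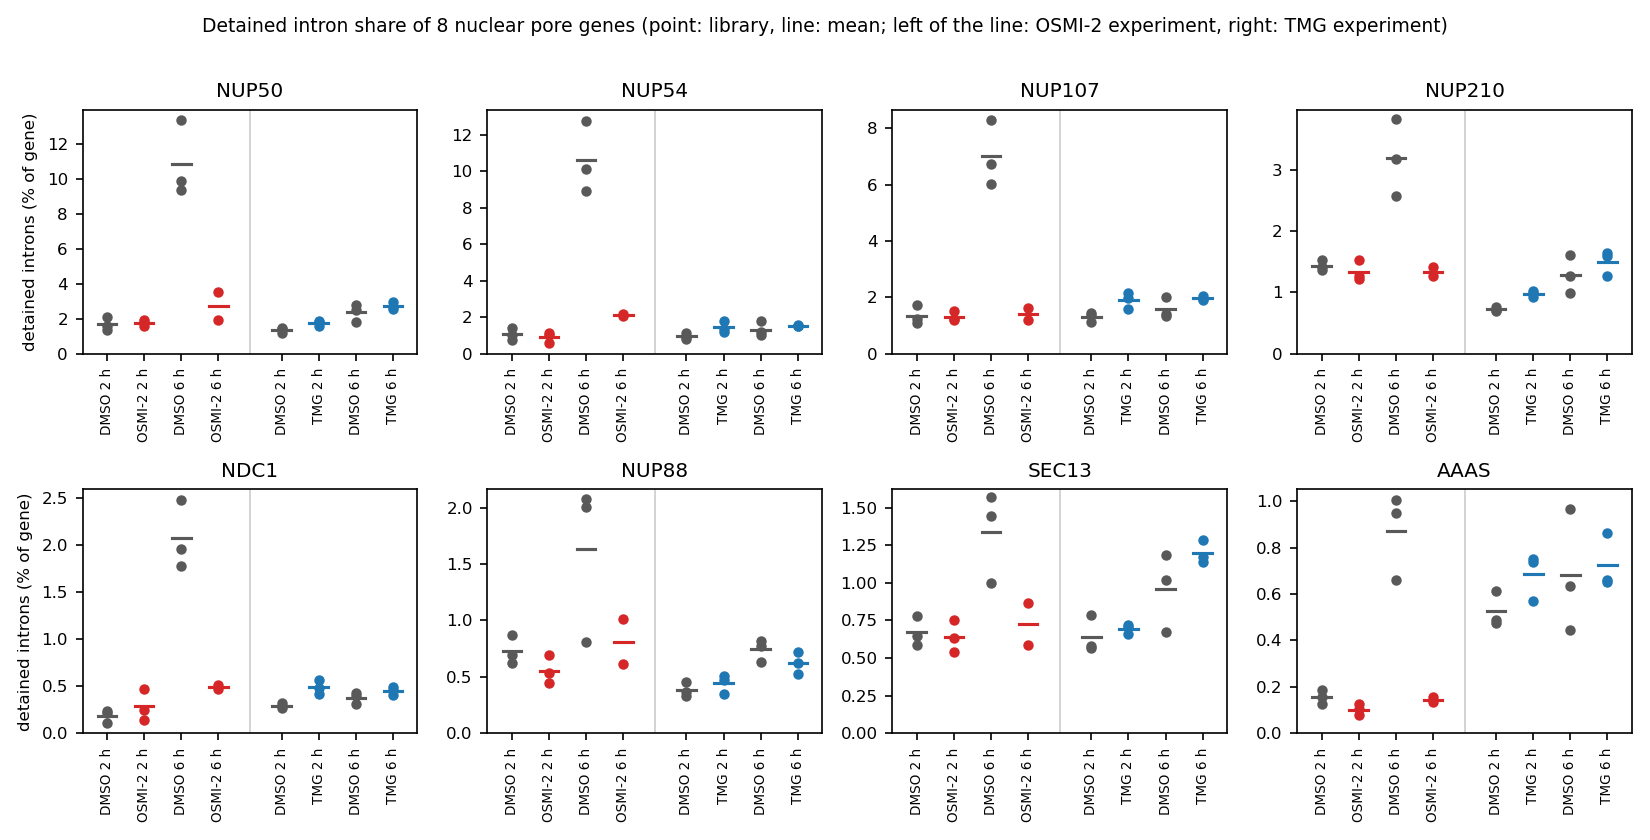
Detained intron counts as a percentage of gene plus intron counts in 8 nuclear pore genes, with a point per library and a line at the group mean in each of the 8 groups. NUP50 and NUP54 have means of 10.9% and 10.6% in DMSO 6 h of the OSMI-2 experiment and 2.71% and 2.11% in OSMI-2 6 h, and the 2 groups overlap in NUP88 alone.

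After 6 h of TMG 1 of 29 member genes passed, beside 6.1% of 12090 genes. It was NUP54, with 100, 101 and 105 CPM in DMSO and 117, 123 and 115 CPM with TMG. The groups did not overlap and NUP54 rose by 0.21 (SE 0.06; adjusted p = 0.045 by Benjamini-Hochberg in edgeR). The median log2 fold change was 0.07 for the members and -0.03 for all genes. Of the other FG genes and TPR, NUPL1 had 0.17, NUP50 0.08, NUP214 0.07, NUP153 0.04, NUP98 0.02, TPR 0.02, NUPL2 0.01, RANBP2 -0.01 and POM121 -0.04. MGEA5 rose by 0.72 and OGT fell by 0.48 (edgeR, Benjamini-Hochberg adjusted p = 5.7e-06 and 0.0016). Without DMSO 6 h library a of the TMG experiment 4 members passed, all higher with TMG, among 1248 genes in all, and without any 1 of the other 5 libraries 0 did. The latter is not set against all genes.

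No member intron passed at 6 h of TMG: 0 of 47 in edgeR, with 3 at an unadjusted p under 0.05 and 0 in DESeq2, beside 0.191% of all, and 0 of 46 relative to the gene in limma (3 at an unadjusted p under 0.05), beside 0.191%. The members' introns held 0.576% to 0.895% in DMSO 6 h and 0.748% to 0.852% in TMG 6 h, so the ranges overlapped. Without DMSO library b, 5 bins passed in edgeR and 3 in limma, all higher with TMG, among 330 and 273 bins in all. TPR was the single member whose intron share was higher in every TMG library, beside 7.31% of the same 2422 genes.

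The difference between the effects of the drugs was tested in 1 fit over the 4 groups of a time. At 2 h 0 of 29 member genes passed (edgeR; 1 at an unadjusted p under 0.05; DESeq2 0), beside 0% of all genes, and 0 of 45 introns (6 at an unadjusted p under 0.05; DESeq2 0), beside 0.26%. At 6 h 46 of 51 member introns passed, all lower with OSMI-2 than with TMG relative to their DMSO libraries (73.5% of all; median -1.81 for the members, -1.54 for all), and 31 of 50 passed without DMSO 6 h library a of the OSMI-2 experiment, where 46.5% of all bins were called in either direction. Among genes 1 of 29 passed at 6 h beside 19.9% of all. It was NUP43, with -1.21 (SE 0.37; adjusted p = 0.035 by Benjamini-Hochberg in edgeR). In the TMG experiment NUP43 had 54.8, 55.8 and 59.2 CPM in DMSO 6 h and 66.8, 63.6 and 66.1 CPM with TMG. Without DMSO 6 h library a of the OSMI-2 experiment NUP43 had -0.28, and 23 other members passed, all with the higher value for OSMI-2. Of all genes 74.9% passed, most of them (9141 of 9395) with the higher value for OSMI-2. The median in that fit was 0.77 for the members and 0.88 for all genes. Fitted apart, the median over all genes was 0.26 for OSMI-2 without library a and -0.03 for TMG. NUP43 had -0.64 in the former (edgeR) and 0.21 with TMG (DESeq2). The part of the joint scaling in these values was not tested. Without DMSO 6 h library b 3 members and 3240 genes in all passed. Without either OSMI-2 library or any TMG experiment library 0 members passed, which is not set against all genes. Drug and experiment cannot be told apart in these differences, though each drug stands against DMSO libraries of its own experiment.

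Between the times, the effect of OSMI-2 on member introns was lower at 6 h than at 2 h for 36 of 51 bins (65.7% of all; median -1.61 for the members, -1.49 for all; edgeR). Without DMSO 6 h library a it was lower for 29 of 49, where 60.1% of all bins were called in either direction. Among genes 0 of 29 passed (edgeR; 1 at an unadjusted p under 0.05; DESeq2 0), beside 0.111% of all, and 4 passed without DMSO 6 h library a, among 1610 genes in all. For TMG 0 of 29 genes (5 at an unadjusted p under 0.05), beside 0.0242% of all, and 0 of 48 introns (4 at an unadjusted p under 0.05), beside 0.0682% of all, passed in edgeR, and DESeq2 called 0 of both.

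The transport machinery that works with the pore was followed as a list of 40 gene symbols for importins, exportins, the Ran cycle and mRNA export, of which 36 could be tested. At 2 h edgeR called 0 of them with OSMI-2 (0 at an unadjusted p under 0.05) and 0 with TMG (1 at an unadjusted p under 0.05). Of all genes 0% and 7.91% passed there. At 6 h of OSMI-2 the importin IPO7 rose by 1.08 (SE 0.30) and PCID2, of the mRNA export complex TREX-2, fell by 1.20 (SE 0.35), with edgeR Benjamini-Hochberg adjusted p of 0.023 and 0.029. Of all genes 4.87% passed there, and the values of both genes without DMSO 6 h library a are not given here. At 6 h of TMG the importin IPO13 fell by 0.27 (SE 0.08; edgeR, adjusted p = 0.042 after Benjamini-Hochberg), where 6.1% of all genes passed. The median log2 fold changes of the list were -0.14, 0.14, 0.02 and 0.03 for OSMI-2 at 2 h and 6 h and TMG at 2 h and 6 h. Between the DMSO groups ALYREF, IPO7, KPNA2 and NXT1 fell in the OSMI-2 experiment, where 18.5% of all genes passed. Both calls on IPO7 share the DMSO 6 h libraries. In the TMG experiment 6 genes of the list rose and 3 fell, beside 45.9% of all genes that passed.

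The detained introns of the transport genes stood beside those of the pore genes with similar medians. At 6 h of OSMI-2 all 35 tested bins were lower in edgeR, beside the 86.4% of all detained intron bins. Their median was -1.59 on the log2 scale, and that of all bins was -1.55. At 2 h of TMG 4 of 34 were higher in edgeR, in KPNB1, MCM3AP and PCID2, beside the 9.75% of all bins, with a median of 0.29 over the 34 and 0.29 over all. No difference between the transport and the pore genes was tested. A further 5 pore partners were tested, and in edgeR 0 were called in the 4 drug comparisons, with 0 at an unadjusted p under 0.05.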

How the data were processed

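The authors deposited 1 table per drug and time with whole-number counts per exon or intron bin and library, without normalization per the file headers, and with the columns of a DEXSeq-type result: a p-value, its adjusted form and a log2 fold change of bin usage, which per the file headers set treated against DMSO libraries. STAR and hg19 are named in the submitters' processing notes. The annotation, the counting tool, whether strand was used and how reads across bins were counted are not given in the sources used here. Strand-overlapping genes and near-identical copies are therefore uncertain. The labels' protocols name Trizol and a column kit for RNA extraction without saying where each was used.

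The tables hold 23 libraries in 8 groups, with 39.5 M to 100.2 M counts each (M, mega). Where the design assumed 3 OSMI-2 6 h libraries, 2 were used, and the third was not analysed here. All bins of a gene except detained introns were summed to a gene count, and each detained intron bin was kept on its own. Genes and introns were tested apart, on the whole table, in R 4.3.3 by edgeR's (4.0.16) quasi-likelihood test (TMM over genes and introns together, filterByExpr), two-sided, with Benjamini-Hochberg adjustment over all features of the kind and a threshold of 0.05. The standard error in edgeR is the size of the log2 fold change divided by the root of F. With limma 3.58.1 introns were tested against their gene, on log2 of intron count plus 1 over gene count plus 1, for means of at least 10 counts. Differences between drugs or times were contrasts in 1 fit. CPM given with a fold change are scaled by TMM within that table. Levels per kilobase put all 23 libraries on 1 scale. GC content came from the longest GENCODE 29 transcript of each gene, for 92.7% of the 11253 genes with a mean of at least 50 counts. The fits were tested on counts simulated after the TMG 2 h comparison alone. The uneven groups and wider spread between libraries of the OSMI-2 experiment were not simulated. Alternatives were DESeq2 1.42.0, other size factors, no low-count filter, a fit over all libraries, each library left out, and, added after seeing the data, the GC slope as a covariate.

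The members and lists were chosen with earlier results of these data known. Values were given, in each comparison, for up to 10 called members with means of 50 counts or more and groups that did not overlap, for the FG genes and TPR where any member was called, for up to 10 called introns with means of 20 counts or more, and for the members with the highest intron share. Other members were named as the lowest, the highest or the uncalled of a count. No 2 libraries of a group agreed within sampling noise (chi-square per degree of freedom 4.33 to 304). One marker of another cell type is not reported here.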

Additional observations from a re-analysis of the deposited data

Results flagged for a closer look

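Differences between the effects of the drugs or the times, each tested as a contrast in 1 edgeR fit, were called in 4 places. At 6 h the effects of OSMI-2 and TMG differed for 1 of 29 nuclear pore genes, NUP43, beside 19.9% of all genes. NUP43 differed by -1.21 on the log2 scale (SE 0.37), with OSMI-2 on the lower side. This difference was -0.28 without DMSO 6 h library a of the OSMI-2 experiment, in a fit where the median over all genes was 0.88. For the detained introns 46 of 51 bins differed between the drugs at 6 h, beside 73.5% of all bins that were called lower. For 36 of 51 bins the effect of OSMI-2 differed between 6 h and 2 h, beside 65.7% of all bins that were called lower. Every called member bin was on the lower side for OSMI-2 at 6 h. The DMSO 6 h libraries of the OSMI-2 experiment, in which the members' introns held 1.35% to 1.91% of counts, enter both intron differences. The part of this high control level in them was not tested, nor that of bins that entered the test through these libraries.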

How the results depend on the processing

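Counts of called members are given as genes or intron bins. Percentages in brackets are the share of all genes or bins tested that the same setting called. Counts without one are not set against all features. For OSMI-2 at 6 h, genes numbered 1 with TMM over genes alone (4.03%), 11 in a fit over all libraries and 12 with the GC slope (43.2%), and introns 8 with TMM over introns alone (16.2%). Relative to the gene and with means of 50 counts or more, 14 of 15 introns passed at 6 h of OSMI-2 and 4 of 8 at 2 h of TMG, where the authors' bin usage also gave 4. For TMG at 2 h, genes numbered 4 with TMM over genes (6.21%) and 0 over all libraries or with the GC slope (0%), and introns 2 with DESeq2 (4.48%) and 0 with TMM over introns (1.75%), over all libraries or with the GC slope (0.172%). Many bins had no adjusted p in that DESeq2 fit and count as not called. For TMG at 6 h, genes numbered 2 with DESeq2 (7.39%), 3 with TMM over genes (5.8%) and 0 over all libraries. Between DMSO groups of the OSMI-2 experiment, genes numbered 5 with DESeq2 (26%), 6 with median-of-ratios factors, 0 with TMM over genes (9.19%), 10 over all libraries and 11 with the GC slope (51.8%), and introns 6 with TMM over introns (26.6%). In the TMG experiment genes numbered 0 over all libraries and 4 with the GC slope (18%), and introns 5 with DESeq2 (10.2%), 1 with TMM over introns (7.62%) and 0 with the GC slope (0.269%). The GC slope ran nearly with the drug at 2 h of TMG and with time between these DMSO groups, and can hardly be separated from them. For the drug difference at 6 h, genes numbered 9 with DESeq2 (47.5%) and 2 with TMM over genes (8.23%), and introns 3 with TMM over introns (12.4%). For OSMI-2 at 6 h minus 2 h, introns numbered 0 with TMM over introns (5.09%). The cause was not tested.

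With 1 library left out, genes numbered 0 to 14 (OSMI-2 6 h), 0 to 2 (TMG 2 h), 0 to 4 (TMG 6 h), 0 to 10 and 8 to 17 (DMSO groups, OSMI-2 and TMG experiment), 0 to 23 (drug difference at 6 h) and 0 to 4 (OSMI-2, 6 h minus 2 h). Introns numbered 41 to 49, 1 to 9, 0 to 5, 45 to 49, 3 to 13, 31 to 47 and 28 to 38 in the same order, and relative to the gene 43 to 49 (OSMI-2 6 h), 0 to 8 (TMG 2 h) and 0 to 3 (TMG 6 h). The gene counts of 14, 10, 23 and 4 (OSMI-2, 6 h minus 2 h) came without DMSO 6 h library a of the OSMI-2 experiment. There 42.4%, 37%, 74.9% and 12.8% of all genes were called. The other ranges are not set against all features. Among single named genes and introns, RANBP2 and NUP133_E006 between the DMSO groups of the TMG experiment turned to -0.010 and -0.063 with the GC slope, which separated those groups. In the drug difference at 6 h NUPL1 ran from -0.75 to 0.39 and NUPL2 from -0.46 to 0.51 with 1 library left out. Both turned above 0 without DMSO 6 h library a of the OSMI-2 experiment, where the median over all genes was 0.88. Of the other values of named features under alternatives that kept all libraries, 491 held, 13 gained and 107 lost the threshold. Called bins without an adjusted p in DESeq2 count among the last. Intron bins often hold under 50 counts, which limits the calls at single bins. No paired analysis was possible because the titles number the samples and the count columns carry letters alone.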
